A study of Solanum lycopersicum and Solanum pimpinellifolium with 30 samples.

Results

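DXS, DXR, PDS, ZDS and ChrC are 5 tomato genes that supply and desaturate the precursors of lycopene in the plastid and store carotenoids in the chromoplast. They were chosen by gene symbol, with earlier results of these data known, and make up 5 of the 803 genes that the platform annotation identifies. Each of the 5 is read by 1 probe set of the Affymetrix tomato GeneChip, a set of short oligonucleotides whose summed hybridisation to labelled cRNA gives the signal. RNA came from the pericarp, the flesh of the fruit wall, of ripe red fruit with skin, locule tissue and seeds removed. LA1589 is an accession of the small-fruited wild species Solanum pimpinellifolium. It was compared with 9 local varieties of Solanum lycopersicum, the landraces 3806, 3815, 3836, 3842, 549, 557, 560, 571 and 572. All 10 cultivars were grown in the field in the same season, and each has 3 arrays labelled as biological replicates. Per the labels, a cultivar was grown as 3 plots of 6 plants, 18 plants in all. The labels do not state that an array stands for a plot or how many fruits were pooled for it. LA1589 is a single accession, so its difference from the landraces cannot be told apart from a difference between the species, and mismatches between its transcripts and the probes were not tested.

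Plastids make the building blocks of carotenoids from pyruvate and glyceraldehyde phosphate by the methylerythritol phosphate pathway. DXS, 1-deoxy-D-xylulose 5-phosphate synthase, catalyses its entry step, and DXR, the reductoisomerase that follows, makes the first intermediate committed to the pathway. Phytoene synthase, encoded in fruit by Psy1, condenses the precursors to colourless phytoene. PDS, phytoene desaturase, and ZDS, zeta-carotene desaturase, then introduce the double bonds that lead towards red lycopene, the pigment of ripe tomato. ChrC encodes a fibrillin-type protein of the chromoplast, where carotenoids are held in lipid bodies.

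Values are log2 signals after quantile normalisation, and a difference of 1 is a doubling. A gene counted as passing a test where limma's p, adjusted by the Benjamini-Hochberg method over 10038 probe sets, was below 0.05. In the RefSeq assembly SLM_r2.1 the DXS gene lies at chr1:73138279-73142539, DXR at chr3:61126286-61131651, PDS at chr3:67362564-67370427, ZDS at chr1:84373361-84381443 and ChrC at chr2:61416945-61418688. Each of these spans is the whole annotated gene. All 5 genes were above background, the level of probe sets for foreign reporter genes, in all 30 arrays. Of the 30 arrays, 26 were nearest in their whole profile to an array of their own cultivar, and the exceptions were replicate 1 of 3815, replicates 1 and 2 of 549 and replicate 2 of 571. The mean of the spiked bacterial controls, as deposited, ran from 8.08 to 10.65 between arrays. The arrays of 557 stood apart, with the 3 lowest correlations with their own cultivar, 0.917 to 0.938, against 0.958 or more for every other array, and with backgrounds of 2.41, 1.34 and 1.27. The epidermis and cuticle genes averaged 1.02 in 557, against 0.26 to 0.43 in the other cultivars. In the 3 arrays of 557 they averaged 1.97, 0.70 and 0.40, each below the background of its array. The single seed marker on the array, TAS14, was above background in 7 of 30 arrays, and none of the 4 epidermis and cuticle genes was above it in more than 5.

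The first comparison asked whether wild LA1589 differed from the landraces. DXS was lower in LA1589, and it alone of the 5 genes passed. Of all probe sets 15.5% passed, with 8.58% higher and 6.96% lower in LA1589. Dim probe sets count in these and all later shares of all probe sets. Without the dimmest 2510 probe sets 1561 passed, against 1560, so the share among brighter probe sets was higher than 15.5%. The 3 LA1589 arrays read 5.22, 5.65 and 4.42 for DXS, whereas the 27 landrace arrays ran from 4.56 to 7.89 with a median of 6.76. The LA1589 mean was the lowest of the 10 cultivars, and 2 of the 27 landrace arrays, replicate 2 of 3815 and replicate 3 of 3836, lay at or below its highest array. The mean was 5.10 ± 0.62 in LA1589 (SD, n = 3) and 6.63 over the 9 landrace means, a log2 difference of -1.53 ± 0.42 (SE, limma, adjusted p = 0.0132), or 0.346 times the landrace level. In bulk tissue, fewer cells of a type and less RNA per cell cannot be told apart.

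The difference in DXS was sensitive to the LA1589 arrays and to the error term. Without LA1589 replicate 1 it was -1.59 (limma, adjusted p = 0.0553), and without replicate 3 it was -1.19 (adjusted p = 0.137). With cultivar as a random effect the same -1.53 had an adjusted p of 0.237. The spiked controls averaged 9.68 in LA1589, against 8.29 in 571 and 10.37 in 557 at the ends of the landraces. With that mean as a covariate the difference in DXS was -0.95 (adjusted p = 0.149).

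The other 4 genes did not pass between LA1589 and the landraces. DXR averaged 4.04 in LA1589 and 4.32 in the landraces, a difference of -0.27 ± 0.30 (SE, limma, adjusted p = 0.618). PDS averaged 3.49 in LA1589 and 4.01 in the landraces, a difference of -0.52 ± 0.27 (adjusted p = 0.210). The 2 remaining differences were nearer to 0, with 0.15 ± 0.21 for ZDS (adjusted p = 0.71) and 0.01 ± 0.20 for ChrC (adjusted p = 0.986). The 3 LA1589 arrays themselves spanned 6.88 to 8.14 for ChrC, inside the landrace arrays, which ran from 6.75 to 8.52. For none of the 5 genes did the LA1589 arrays all lie outside the landrace arrays, as they did for 2.03% of all probe sets.

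**Figure D1:**
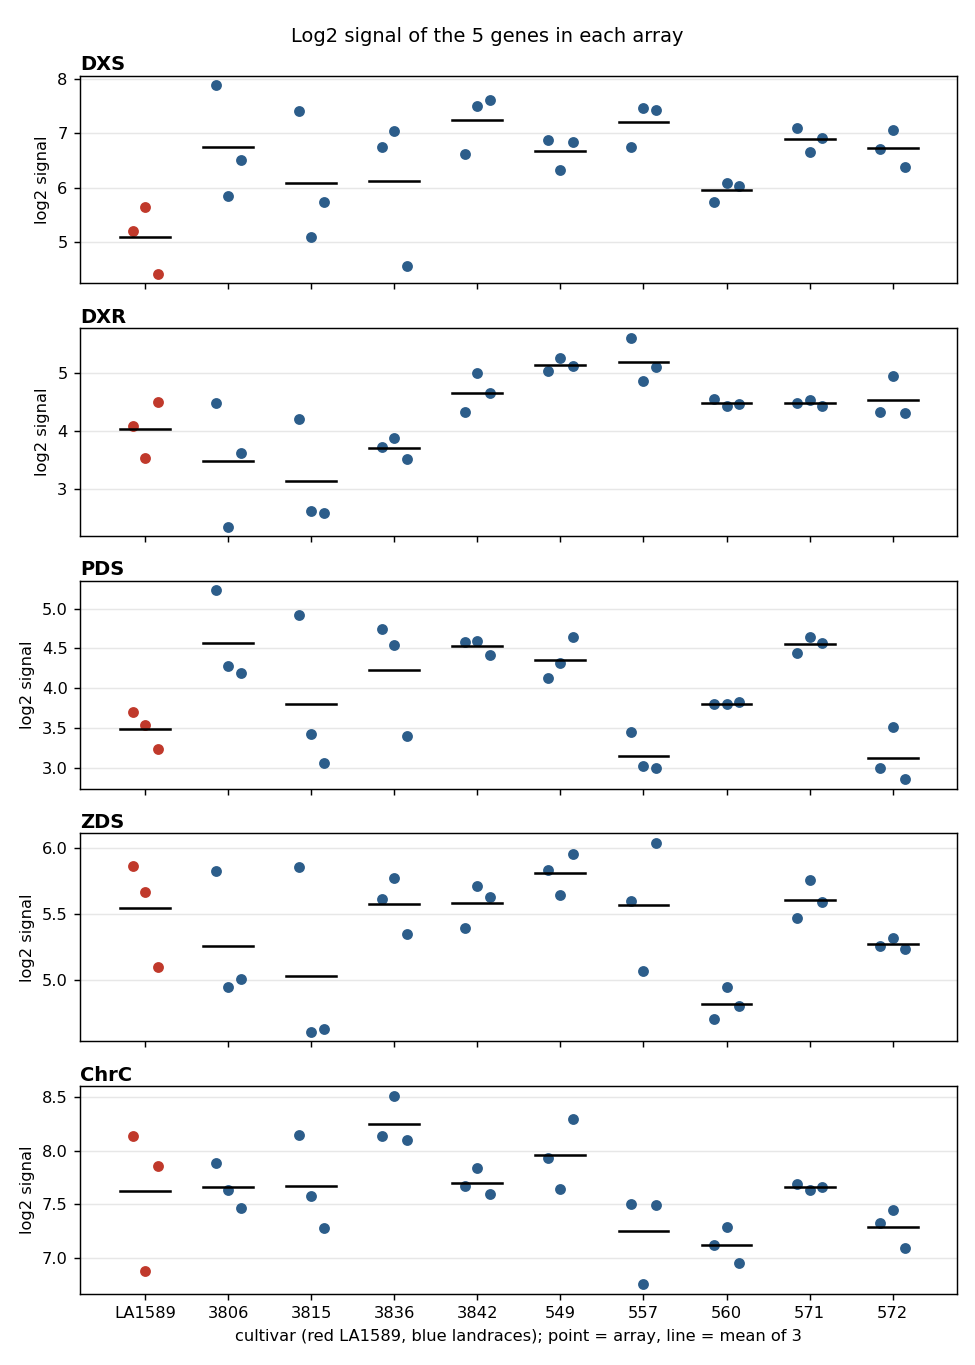
Log2 signal of DXS, DXR, PDS, ZDS and ChrC (vertical axes, each with its own scale) in each array of the 10 cultivars (horizontal axis), with LA1589 in red at the left and the 9 landraces in blue; points are arrays and black lines are means of 3. The DXS mean of LA1589, 5.10, is the lowest of the 10, DXR is lowest in 3815 at 3.15, and the arrays of 3806, 3815 and 3836 are far apart for DXS.

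The second comparison asked whether the 9 landraces differed among themselves, by the moderated F test on their 27 arrays. DXR, PDS and ChrC passed, 3 of the 5 genes, and DXS and ZDS did not. Of all probe sets 39.1% passed, dim ones included. Without the dimmest 2510 probe sets 3886 passed, against 3921, so the share among brighter probe sets was higher than 39.1%. With only 5 genes, 3 of 5 is not set apart from either share. Without landrace 557, whose arrays stood apart, DXR, PDS and ChrC still passed (adjusted p = 0.00584, 0.0346 and 0.00369), and so did ZDS (adjusted p = 0.0471). The difference of LA1589 in DXS was then -1.46 (adjusted p = 0.0202). Each landrace was also compared with the mean of the other 8, and 7 of these 45 contrasts passed (15.6%), beside 8.91% over all probe sets and landraces.

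DXR had the widest spread of the 5 genes, 2.04 between the means of 557 and 3815 (limma, adjusted p = 0.00195), or 4.11-fold. It read 5.61, 4.86 and 5.11 in the arrays of 557, against 4.22, 2.63 and 2.60 in those of 3815. Landrace 549 stood beside 557, with 5.04, 5.26 and 5.12. All arrays of 557 and 549 were above all arrays of 3815. These landraces were picked as the ends of the DXR order, which favours such a separation. Its share over all probe sets was not computed. Replicate 1 of 3815 lay far above the other arrays of its own cultivar. The arrays of landrace 3806 were also far apart, at 4.49, 2.36 and 3.63.

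Against the other 8 landraces, DXR was lower in 3815 by a log2 difference of -1.31 ± 0.30 (3.15 against 4.46; adjusted p = 0.00826), in a contrast where 3.72% of probe sets were lower. It was higher in 557 by 0.98 ± 0.30 (5.19 against 4.21; adjusted p = 0.0214), in a contrast with 12.3% of probe sets higher. The threshold was missed by 549 at 0.92 (adjusted p = 0.152) and by 3806 at -0.92 (adjusted p = 0.0718). Without replicate 1 of 3815 and the other 3 arrays that were nearest to another cultivar, the difference of 3815 was -1.84 (adjusted p = 0.00157). Without replicate 2 of 3815 it was -1.05 (adjusted p = 0.137), and without replicate 3 it was -1.04 (adjusted p = 0.151). For 557 the difference was 0.77 without its replicate 1 (adjusted p = 0.157).

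DXS, which feeds DXR, did not pass the F test among the landraces although its means spanned 1.29 (limma, adjusted p = 0.359). Its arrays read 6.62, 7.51 and 7.61 in the highest landrace, 3842, against 5.74, 6.09 and 6.03 in the lowest, 560. Arrays of the same cultivar were far apart in other landraces, with 7.89, 5.85 and 6.52 in 3806, 7.41, 5.10 and 5.74 in 3815 and 6.76, 7.04 and 4.56 in 3836. Its standard deviation within cultivars was 0.74, larger than in 96.2% of all probe sets. It was 0.52 for DXR, 0.46 for PDS, 0.36 for ZDS and 0.33 for ChrC. With array weights, which count arrays far from their cultivar less, the DXS range was 1.64 and passed (adjusted p = 0.0213).

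PDS separated 557 and 572 from the landraces with the highest levels. It read 5.23, 4.28 and 4.18 in 3806, 4.45, 4.64 and 4.56 in 571 and 4.58, 4.60 and 4.42 in 3842. The arrays of the lowest landraces read 3.45, 3.02 and 2.99 in 557 and 2.99, 3.51 and 2.86 in 572. The closest arrays were those of 560, at 3.80, 3.80 and 3.83, and the farthest apart those of 3815, at 4.92, 3.43 and 3.06. All arrays of 557 and 572, picked for their lowest means, were below all arrays of 3806, 571, 3842, 549 and 560. The range of the landrace means was 1.45, with 4.57 ± 0.58 in 3806 against 3.12 ± 0.34 in 572 (SD, n = 3 each), or 2.72-fold (limma, adjusted p = 0.00733).

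Against the other 8 landraces, PDS was lower in 572, at -1.0 ± 0.28 (SE; 3.12 against 4.12; adjusted p = 0.0179), and in 557, at -0.97 ± 0.28 (3.15 against 4.12; adjusted p = 0.0157). The shares of probe sets lower in those contrasts were 6.62% and 11.1%. Without replicate 1 or 3 of 572 the first call was lost (adjusted p = 0.0959 and 0.108), and without replicate 2 or 3 of 557 the second was lost (adjusted p = 0.0620 and 0.0631). The same cultivars, 557 and 572, had the highest means of the spiked controls, 10.37 ± 0.25 and 10.28 ± 0.21 as deposited (SD, n = 3 each). With the spiked controls as a covariate, the PDS difference was 0.044 in 557 (adjusted p = 0.972) and -0.075 in 572 (adjusted p = 0.961), and the F test was not passed (range 1.09, adjusted p = 0.359).

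Across the 10 cultivar means, PDS and the mean of the spiked controls had a Pearson correlation of -0.87 and a Spearman correlation of -0.85. It was -0.69 without 557 and 572, and 0.438% of all probe sets had a correlation at least as low. Across the same means PDS followed the array median of the deposited values with a correlation of 0.82. The other 4 genes had correlations with the spiked controls between -0.22 and 0.12. Without 557 and 572, however, DXS had a correlation of -0.81 and DXR of -0.43.

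**Figure D2:**
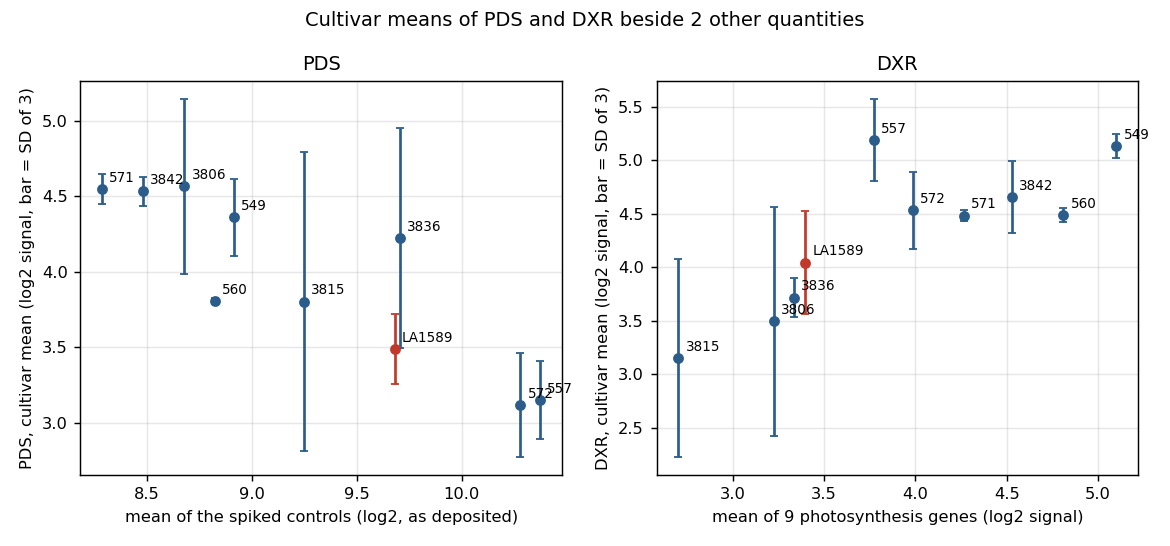
Cultivar means of PDS against the mean of the spiked bacterial controls (left) and of DXR against the mean of 9 photosynthesis genes (right), all on log2 scales; each point is 1 of 10 cultivars, LA1589 in red, and bars are standard deviations of 3 arrays. PDS is lowest in 557 and 572, where the spiked controls are highest, with a correlation of -0.87, and DXR rises with the photosynthesis genes, with a correlation of 0.81.

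ZDS had the narrowest spread, 0.99 between 549 and 560, and did not pass the F test (limma, adjusted p = 0.0818). Its arrays read 5.83, 5.65 and 5.96 in 549, against 4.71, 4.95 and 4.81 in 560. All arrays of 560 were below all arrays of 549, but these landraces were picked as the ends of the order. The contrast of 560 with the other 8 landraces did pass, at -0.64 ± 0.21 (SE; 4.82 against 5.46; adjusted p = 0.0292), with 10.8% of probe sets lower in 560. Leaving out any 1 of the 3 arrays of 560 ended this call (adjusted p = 0.148, 0.0669 and 0.0988). Arrays of 3815 were again divided, with 5.86, 4.61 and 4.63. Without replicate 1 of 3815 the landrace range of ZDS was 1.19 and the F test was passed (adjusted p = 0.00409), and without the 4 arrays nearest to another cultivar the range was 1.34 (adjusted p = 0.0176).

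ChrC was highest in 3836 and lowest in 560, a range of 1.13 or 2.20-fold (limma, adjusted p = 0.00535). It read 8.14, 8.52 and 8.10 in 3836, against 7.12, 7.29 and 6.95 in 560. The arrays of these 2 landraces, picked as the ends of the order, did not overlap. Against the other 8 landraces ChrC was higher in 3836 by 0.71 ± 0.17 (SE; 8.25 against 7.54; adjusted p = 0.0230), in a contrast where 2.05% of probe sets were higher, and lower in 560 by -0.56 ± 0.17 (7.12 against 7.68; adjusted p = 0.0171). The call in 3836 ended when any 1 of its 3 arrays was left out, with differences from 0.58 to 0.79, and that in 560 ended without its replicate 1 or 3. Without landrace 3836 the range among the other landraces was 0.84 and the F test was just not passed (adjusted p = 0.0513).

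**Figure D3:**
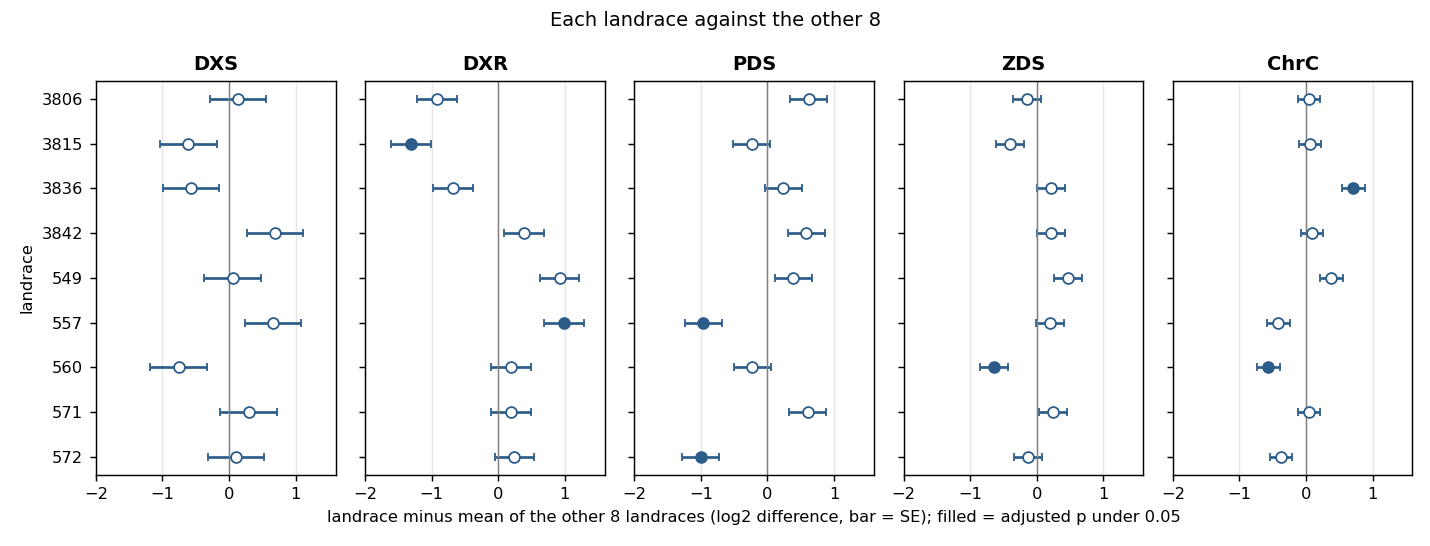
Difference of each of the 9 landraces (rows) from the mean of the other 8 on the log2 scale for DXS, DXR, PDS, ZDS and ChrC (panels), with bars for the standard error and filled points where the adjusted p is below 0.05. The 7 filled points are DXR in 3815 at -1.31 and in 557 at 0.98, PDS in 557 at -0.97 and in 572 at -1.0, ZDS in 560 at -0.64, and ChrC in 3836 at 0.71 and in 560 at -0.56.

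No landrace was high or low for all 5 genes. Landrace 557 had the highest DXR mean, 5.19, and nearly the lowest PDS mean, 3.15. Landrace 560 had the lowest landrace mean of DXS, ZDS and ChrC, at 5.95, 4.82 and 7.12, but stood in the middle for DXR, at 4.49. Landrace 3836 had the highest ChrC mean with a DXR mean of 3.72, the third lowest.

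Ordered by level, DXS ran 3842 (7.24), 557 (7.22), 571 (6.89), 3806 (6.75), 572 (6.72), 549 (6.68), 3836 (6.12), 3815 (6.09), 560 (5.95) and LA1589 (5.10). DXR ran 557 (5.19), 549 (5.14), 3842 (4.66), 572 (4.53), 560 (4.49), 571 (4.48), LA1589 (4.04), 3836 (3.72), 3806 (3.50) and 3815 (3.15). Both genes had 3836, 3815 and LA1589 among their lowest 4 cultivars.

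PDS ran 3806 (4.57), 571 (4.55), 3842 (4.53), 549 (4.36), 3836 (4.22), 560 (3.81), 3815 (3.80), LA1589 (3.49), 557 (3.15) and 572 (3.12). ZDS ran 549 (5.81), 571 (5.61), 3842 (5.58), 3836 (5.58), 557 (5.57), LA1589 (5.55), 572 (5.27), 3806 (5.26), 3815 (5.03) and 560 (4.82). ChrC ran 3836 (8.25), 549 (7.96), 3842 (7.70), 3815 (7.67), 3806 (7.66), 571 (7.66), LA1589 (7.62), 572 (7.29), 557 (7.25) and 560 (7.12). LA1589 thus stood in the lower middle for PDS and in the middle for ZDS and ChrC. All 45 pairs of cultivars were compared by limma, with p adjusted over pairs and probe sets together. Between neighbours in the order of any of the 5 genes, 0 of 45 differences passed, and the lowest adjusted p was 0.424. Neighbours were set by the same means and so have the smallest gaps, and their count cannot show that their levels are equal. Over all pairs, 26 of 225 passed (11.6%), beside 9.06% for all probe sets.

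For DXS the 3 pairs that passed all had LA1589 at the lower end, 2.15 below 3842, 2.12 below 557 and 1.79 below 571. For DXR 10 pairs passed, and in each the lower cultivar was 3815, 3806 or 3836. PDS had 8 such pairs, with 3806, 3842, 549 and 571 each above both 557 and 572 by 1.21 to 1.45. ZDS had 1, with 549 above 560 by 0.99. In ChrC 4 pairs passed, with 3836 above 557, 560 and 572 by 0.96 to 1.13 and 549 above 560 by 0.84.

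Across cultivars, the genes did not share 1 order. Over the 10 cultivar means the highest Pearson correlations were 0.60 between PDS and ChrC and 0.56 between ZDS and ChrC. The consecutive steps DXS and DXR had a correlation of 0.48, and the desaturases PDS and ZDS of 0.26. DXR ran slightly against PDS (-0.19) and ChrC (-0.31). These are descriptions over 10 points that share arrays and normalisation, and with median centring in place of quantile normalisation the value for PDS and ZDS was 0.07.

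Deviations within cultivars were also compared. Each array was expressed as its deviation from its cultivar mean, and over the 30 arrays the correlation of these deviations was 0.77 for DXS and PDS, 0.75 for PDS and ZDS, 0.72 for DXS and ZDS and 0.68 for DXR and PDS. PDS ranked 29 among the 10037 other probe sets by this correlation with DXS, whose median over all of them was -0.02. It was 0.55 for DXS and DXR, 0.52 for PDS and ChrC and 0.57 for ZDS and ChrC, near the values over the cultivar means, and lowest for DXS and ChrC, at 0.24. In 11 of the 30 arrays all 5 genes lay on the same side of their cultivar mean. The same count was not made for other sets of 5 probe sets, so it has no background. Above that mean were, among others, replicate 1 of 3806 and of 3815 and replicate 2 of 3836. Below that mean were, among others, replicates 2 and 3 of 3815, replicate 2 of 3806 and replicate 3 of 3836.

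The correlations depended on which arrays entered. Without the 2 arrays with the largest deviation of the first gene of a pair they were 0.63 for DXS and PDS, 0.68 for DXS and ZDS and 0.66 for PDS and ZDS. Landraces 3806, 3815 and 3836 had the largest DXS spread and were singled out after their values were seen, so that leaving them out lowers correlations with DXS by construction. Over the 21 arrays of the other 7 cultivars the correlation was 0.13 for DXS and PDS, 0.36 for PDS and ZDS, 0.42 for DXS and ZDS and -0.27 for DXS and DXR. That of DXR and ChrC was 0.60 there, against 0.56 over all 30 arrays. The mean of the 9 photosynthesis genes moved with these deviations, with correlations over the 30 arrays of 0.58 for DXS, 0.71 for DXR, 0.71 for PDS, 0.72 for ZDS and 0.76 for ChrC. It read 3.91, 2.54 and 3.23 in the arrays of 3806, 3.74, 2.34 and 2.03 in 3815 and 3.39, 3.84 and 2.78 in 3836. For this mean and for PDS alike, replicate 1 was the highest array of 3806 and of 3815, and replicate 3 the lowest of 3836. The spiked controls ran the other way, with correlations of -0.54 for DXS, -0.40 for DXR, -0.46 for PDS and -0.41 for ZDS, and 0.03 for ChrC. They read 8.28, 9.20 and 8.55 in 3806, 8.71, 9.46 and 9.58 in 3815 and 9.53, 9.51 and 10.07 in 3836, lowest in replicate 1 of 3806 and of 3815 and highest in replicate 3 of 3836. The part of either in the shared movement was not tested.

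**Figure D4:**
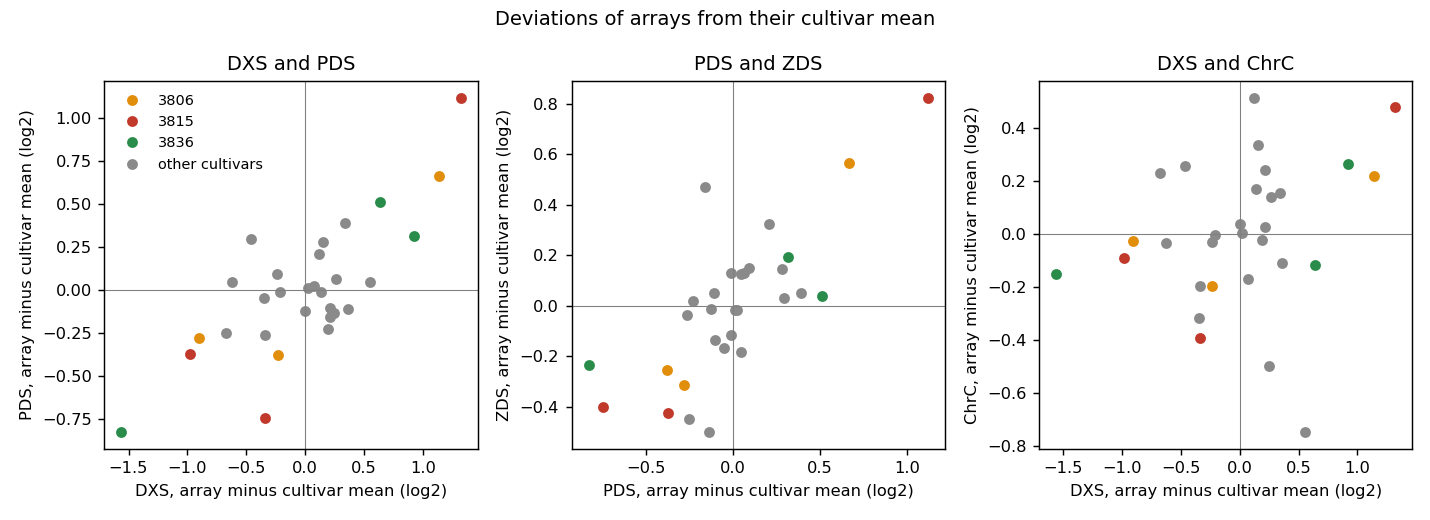
Deviation of each of the 30 arrays from its cultivar mean on the log2 scale for DXS and PDS, PDS and ZDS, and DXS and ChrC; arrays of 3806, 3815 and 3836 are coloured and those of the other 7 cultivars are grey. The correlations are 0.77, 0.75 and 0.24, and coloured arrays hold both ends of DXS and PDS. The lowest ZDS deviations are grey points, replicate 2 of 557 at -0.50 and replicate 3 of LA1589 at -0.45.

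DXR also followed the photosynthesis genes across cultivars. The 2 had a Pearson correlation of 0.81 and a Spearman correlation of 0.76 over the 10 cultivar means, and 0.61 without 549 and 3815, whose photosynthesis means of 5.10 and 2.70 were the highest and the lowest. A correlation at least as high was found for 1.4% of all probe sets. Of the 9 photosynthesis genes 8 were above background in at least 15 arrays. PETE, plastocyanin, spanned 5.51 between 560 and 3815 (limma F test, adjusted p = 0.000337), and PSBO, a subunit of the oxygen-evolving complex, spanned 3.72 between 549 and 3815 (adjusted p = 0.00567). CAB4, a chlorophyll-binding protein, spanned 2.81 between 549 and 572 (adjusted p = 4.48e-05), although only 1 array of 572 was above background. PSBP, of the same oxygen-evolving complex, did not pass either test, with a range of 2.25 (adjusted p = 0.0826).

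The supply list held 2 further measured genes. HDS, the last but one enzyme of the methylerythritol phosphate pathway, and ISPE, the kinase in its middle, passed neither test. HDS averaged 4.46 in LA1589 and 5.03 in the landraces, a difference of -0.57 ± 0.26 (SE, limma, adjusted p = 0.154). Among the carotene steps to lycopene, 3 of 5 genes passed the F test, beside 39.1% of all probe sets. Between LA1589 and the landraces 0 of them passed in either direction, beside 15.5%. Psy1 had a range of 4.30 between 9.66 ± 0.04 in 3842 and 5.36 ± 0.28 in 560 (SD, n = 3 each; adjusted p = 1.92e-07). Most of this range came from 560, since the next lowest landrace mean of Psy1 was 8.46, in 572. Without landrace 560 Psy1 did not pass the F test (limma, adjusted p = 0.107). PSY2, the second phytoene synthase, had a range of 1.17 between 549 and 3815 (adjusted p = 0.0134). PTOX, the plastid terminal oxidase that takes up electrons from the desaturases, did not pass, with a range of 0.79 (adjusted p = 0.103). Landrace 560, lowest in Psy1, was thus also the lowest landrace in DXS, ZDS, PTOX and ChrC, of which only ChrC passed the F test. It was the highest landrace in ISPE, at 4.79. For DXR, PDS, PSY2 and HDS it was neither, at 4.49, 3.81, 2.13 and 4.60. Of the 5 genes followed here, its contrast with the other 8 landraces passed for ZDS and ChrC and not for DXS (-0.76, limma, adjusted p = 0.229). In that contrast 10.8% of all probe sets were lower in 560. Genes outside this route that are named here were also lowest in 560, such as SlSSR1, ETR4 and LOXB. Others, such as PETE and rpl38, were highest there. The share of all probe sets with their lowest landrace mean in 560 was not computed.

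After lycopene, 4 of 9 genes passed the F test, and 1 was higher and 2 were lower in LA1589. The shares of all probe sets were 39.1%, 8.58% and 6.96%. CrtR-b1, a carotene hydroxylase, spanned 2.56 between 5.16 in 560 and 2.60 in 3806 (limma, adjusted p = 0.000771). NCED1, which cleaves epoxycarotenoids towards abscisic acid, spanned 2.36 between 557 and 572 (adjusted p = 0.00142). NSY, named for neoxanthin synthase, was at least 1.53-fold higher in 560 than in 572, where no array was above background (adjusted p = 0.0141). CCD1B, a carotenoid cleavage dioxygenase, spanned 1.19 between 549 and 560 (adjusted p = 0.0106) and was named for its likeness to ZDS.

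NCED1 was not above background in any LA1589 array and was at least 3.20-fold lower there than in the landraces (means 0.57 and 2.62; limma, adjusted p = 0.000210). ZEP, zeaxanthin epoxidase, was lower in LA1589 by -1.41 ± 0.32 (SE; 1.92 against 3.33; adjusted p = 0.00317). CCD1A, named after its values were seen, was higher in LA1589 (2.06 against 0.86; adjusted p = 0.00119), with 17 of the 27 landrace arrays above background. LCY1, a lycopene cyclase, passed neither test, with a range of 1.08 (adjusted p = 0.498).

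Beside ChrC, the storage list held HSP21, a plastid small heat shock protein, which spanned 2.07 between 549 and 557 without passing (limma, adjusted p = 0.386); its arrays in 549 had an SD of 1.97. The median landrace range was 1.23 over the 4 supply genes and 1.17 over the 5 carotene genes. It was 1.19 over the 9 genes after lycopene and 1.6 over the 2 storage genes, beside 0.89 over all probe sets. These medians are not at like brightness. All supply, carotene and storage genes were above background in at least 15 arrays, and 7 of the 9 after lycopene. Of all 10038 probe sets 6503 were, and a median over those alone was not computed.

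**Figure D5:**
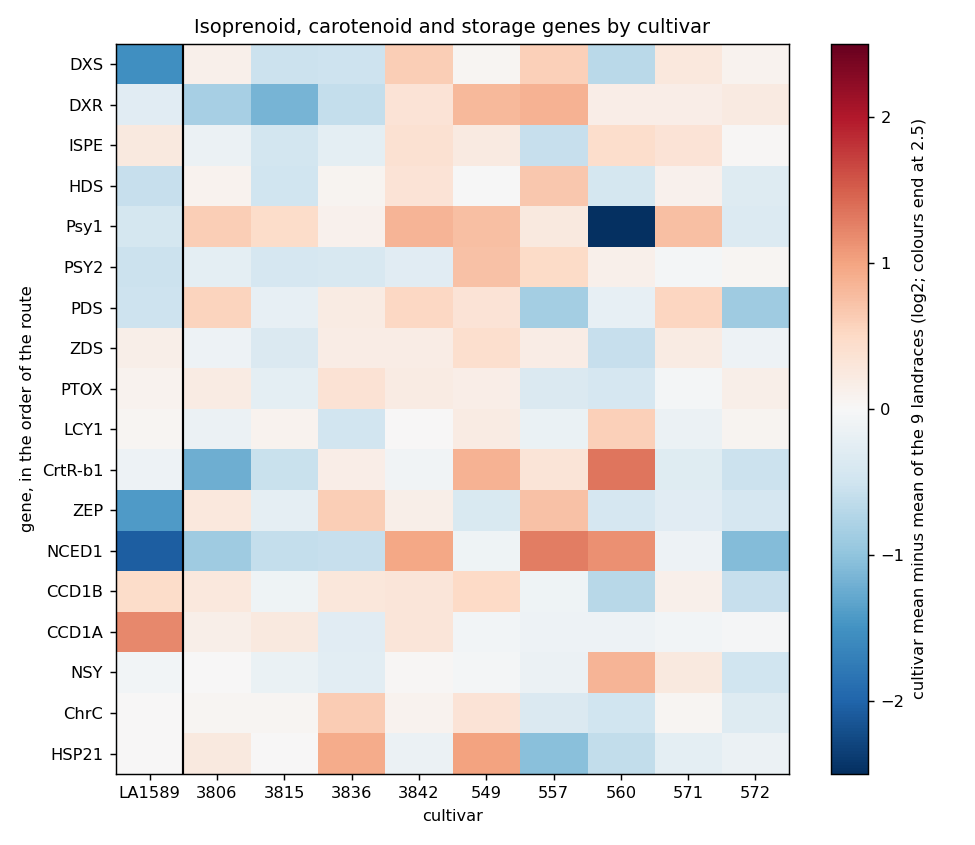
Cultivar means of 18 isoprenoid, carotenoid and storage genes (rows, in the order of the route) minus the mean of the 9 landraces, on the log2 scale, for LA1589 at the left and the 9 landraces; red is higher, blue is lower, and colours end at 2.5. DXS (-1.53) and ZEP (-1.41) are lower in LA1589, and Psy1 in 560 passes the end of the scale. NSY, NCED1, CCD1A, LCY1 and PSY2 have arrays at background, where the colour is not an exact difference, among them all LA1589 arrays of NCED1.

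The cytosolic isoprenoid route, which makes sterols from other precursors, held 3 measured genes. FPPS1, farnesyl diphosphate synthase, was higher in LA1589 by 1.62 ± 0.30 (SE; 6.71 against 5.10; limma, adjusted p = 0.000414). SlSSR1, a sterol side-chain reductase, was lower by -1.10 ± 0.19 (5.49 against 6.59; adjusted p = 0.000222). Both also passed among the landraces, with ranges of 2.31 and 1.56. HMGR passed neither test and was not above background in any LA1589 array. Of the 2 genes for other products of plastid isoprenoids, 0 passed either limma test, and neither was above background in more than 2 arrays.

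Among 21 ripening and ethylene regulators, 13 passed the F test, 6 were higher and 3 lower in LA1589. The shares of all probe sets, dim ones included, were 39.1%, 8.58% and 6.96%. All 21 were above background in at least 15 arrays. Without landrace 560, 7 of them passed the F test. ACS2, an ethylene synthesis gene of ripening, was higher in LA1589 by 2.53 ± 0.62 (SE; 7.45 against 4.92; limma, adjusted p = 0.00659) and spanned 4.91 between 557 and 3806. ACS4, of the same family, spanned 3.28 between 557 and 3836 (adjusted p = 0.0300), and E8, an ethylene-responsive ripening gene, 2.72 between 571 and 3815 (adjusted p = 0.0181). E8 was lower in LA1589 by -2.53 ± 0.44 (5.68 against 8.21; adjusted p = 0.000231), the same direction as DXS. ETR4, an ethylene receptor, passed neither test.

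For each of the 5 genes the named genes with the most similar cultivar means were taken from 273 candidates that passed the F test and were above background in at least 15 arrays, by Pearson correlation over the 10 cultivars. Nearest to DXS were MKK2, a kinase of MAP kinases (0.85), E8 (0.84) and PE1, a pectin methylesterase (0.82). Opposite to DXS were krp2, an inhibitor of cyclin-dependent kinases (-0.79), and CAT2, a catalase (-0.71). The Spearman correlations were 0.81, 0.79 and 0.64 for the first 3 and -0.49 and -0.76 for krp2 and CAT2. LA1589, lowest in DXS, differed from the landraces by -1.26 in MKK2, -2.53 in E8 and -3.27 in PE1. It differed by 0.96 in krp2 and 1.77 in CAT2. All 5 differences passed, and the part of LA1589 in these correlations was not tested.

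Nearest to DXR were CGS, cystathionine gamma-synthase (0.89), TBG3, a beta-galactosidase (0.88), and PETE (0.85), all lowest in 3815, and opposite were PYRB, of pyrimidine synthesis (-0.88), and AGP-1, an arabinogalactan protein (-0.85). Nearest to PDS were RanBP1, a partner of the GTPase Ran (0.89), the cyclin CycA3 (0.89) and IAA3, an auxin response repressor (0.85). Opposite to PDS were EIL4, an ethylene signalling factor (-0.90), and the fructokinase FRK2 (-0.90). IAA3 and RanBP1 were, like PDS, highest in 3806 and lowest in 572.

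Nearest to ZDS were CCD1B (0.76), GPI1 (0.76) and Psy1 (0.69), all lowest in 560, and opposite were DDTFR10 (-0.72) and PDH (-0.61). Nearest to ChrC were RAN2A, a Ran GTPase (0.84), LOXB, a lipoxygenase (0.83), and ER21 (0.83), all highest in 3836, and opposite were rpl38, a ribosomal protein (-0.86), and SAM3, an S-adenosylmethionine synthetase (-0.77). Since the 10 means include LA1589 and the candidates had passed the F test, a matching order is part of the choice. These correlations are descriptions over 10 cultivars and carry no test.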

How the data were processed

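Pericarp RNA from 10 cultivars was measured on 30 one-colour arrays, with 3 arrays labelled as biological replicates per cultivar. The authors' deposited values are log2 signals of 10209 probe sets. Their software, normalisation and log base are not given in the sources used here, and base 2 was assumed. Since the array medians differed by 0.51, quantile normalisation was applied across all arrays. The tests left out 171 control probe sets. Background was the percentile 95 of 63 foreign reporter probe sets per array. A level at background in all arrays of a group gives a fold only as a bound.

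Platform annotation named 909 probe sets, of which 885 matched the gene table of SLM_r2.1 by identifier and 24 did not. Tests used limma 3.58.1 in R 4.3.3, with statmod 1.5.0, fitted to all single arrays with a term for each cultivar, two-sided, adjusted over all probe sets. Figures used matplotlib 3.10.9. A gene with several probe sets was represented by the one with the highest mean.

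Members, gene lists and tests were chosen with earlier results of these data known. Named genes were the 5 members, from each list up to 3 genes with the largest range past the F test, up to 2 with the largest LA1589 change and the highest gene that passed neither, and for each member the 3 most similar and 2 most opposite genes. The removed list matches were 3 name clashes. Replicate numbers were not used to pair the arrays in the main tests. For each pair of cultivars, deviations of same-numbered arrays from their cultivar means were correlated over all probe sets. The average was above 0.1 in 6 of 45 cultivar pairs, with a median of -0.02 and a highest value of 0.24. Whether a replicate number stands for a shared plot cannot be settled by this. Tested on simulated data over 10038 genes, the LA1589 comparison recovered 82% of genes changed by 1 on the log2 scale, and the F test 47%. The simulated noise was independent between arrays, and cultivars differed only by the added change, made in a single landrace for the F test. These rates therefore need not hold for the real arrays. The number of arrays limits the precision, and p-values measure the spread between arrays of one field trial.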

Additional observations from a re-analysis of the deposited data

How the results depend on the processing

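Results were recomputed as deposited, with median centring, without the dimmest 2510 probe sets, with an intensity trend, with array weights, with a replicate block, with the spiked controls as a covariate, and without each array or landrace. Leaving out the 4 arrays nearest to another cultivar was chosen after seeing the data. Of 6498 recomputed values, 6223 kept their direction and side of the threshold or moved little, 125 lost the threshold, 45 gained it, 104 moved and 1 reversed.

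That reversal was PDS in 557 against the other landraces, 0.044 with the spiked controls as a covariate (limma, adjusted p = 0.972). The covariate also gave a PDS range of 1.09 (adjusted p = 0.359), a ZDS range of 1.59 (adjusted p = 0.0246) and a DXS difference of -0.95 in LA1589 (adjusted p = 0.149), so that 0 of the 5 genes passed for LA1589. That DXS difference was -1.53 with 1 mean per cultivar (adjusted p = 0.196) and with cultivar as a random effect (adjusted p = 0.237), with 0 genes passing in each. Without single arrays it ran from -1.81 to -1.19, with 0 to 1 genes passing.

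ZDS passed the F test with median centring (0.93, adjusted p = 0.04999), array weights (1.01, adjusted p = 0.000786), without landrace 3815 or 557 (0.99 in both, adjusted p = 0.0326 and 0.0471) and without the 4 arrays (1.34). Leaving out single arrays gave ZDS ranges from 0.92 to 1.19, with 3 to 4 genes passing. With array weights DXS passed at 1.64, so that all 5 genes passed. Without landrace 3836 the ChrC range was 0.84 (adjusted p = 0.0513). With the replicate block the same numbers of the 5 genes passed, 3 among landraces and 1 for LA1589 (DXS -1.53, adjusted p = 0.0143). Of the 7 landrace calls, array weights ended those of DXR and PDS in 557 (adjusted p = 0.262 and 0.182), the covariate that of ChrC in 3836 (0.0648) and the deposited values that of ChrC in 560 (0.0540). Except where an alternative itself removes arrays or landraces, the cause was not tested.

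Probe sets past the F test numbered 6252 with median centring, against 3921. Those past the LA1589 comparison numbered 111 with 1 mean per cultivar and 228 with a random effect, against 1560. Of the 15 genes chosen by the naming rule that passed for LA1589, only PE1, itself chosen for likeness to DXS, passed under either of those error terms. Median centring moved the median difference of all probe sets by 0.11. The 3 carotene genes past the F test became 5 with median centring, array weights or without 3815, the supply gene became 4 with array weights, and the 13 ripening genes became 7 and the 4 genes after lycopene 2 without 560. PDS had 15 passing pairs of cultivars in the values as deposited, against 8. Each of the 5 genes has 1 probe set, so another probe set could not be tried, and the planned promoter search was not run because no promoter sequence was used here.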
